A study of Homo sapiens with 6 samples.

Results

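Formins are proteins that start and lengthen unbranched actin filaments, and 10 of them are described here: FMNL1, FMNL2, FMNL3, DIAPH1, DIAPH2, DIAPH3, DAAM1, DAAM2, FHOD1 and INF2. They were taken by gene symbol from 18417 genes that have a probe set, the group of probes that reads 1 transcript, with a single symbol. INF2 has 2 probe sets, and the one with the higher mean over all 6 arrays was used. The symbols were chosen by family, but the family was selected on the difference of FMNL2 in these same arrays, so the values of FMNL2 are given as a description, with no test. The arrays are of HT29, an established line of human colorectal adenocarcinoma cells. There were 3 arrays of cells with a control construct and 3 of cells with a construct for expression of laminin α1, all grown for 7 days. Within a group the arrays are 3 passages of culture, so errors measure the spread between passages. The sources used here do not give the promoter of the constructs, the control sequence or the number of clones, and a difference between the groups cannot be told apart from one between clones. The title of the series asks what the laminin α1 chain, a part of the basement membrane protein laminin, does to such cells.

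A formin holds the fast-growing end of an actin filament with its FH2 domain, and its FH1 domain feeds in actin bound to profilin. Most of the family are held closed by contact between their ends until a signal opens them. FMNL2 carries a myristoyl lipid at its start that brings it to the cell membrane, and lengthens filaments at the protruding edge of moving cells. It was described early as a formin raised in metastatic colorectal cancer.

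The regulatory sequence that lies before FMNL2 is shown because FMNL2 is the member with the wide difference, and that of FMNL3 because FMNL3 is its close relative and had a narrow one. Each is the 250 bases before the start of the gene in RefSeq (GRCh38.p14), written 5′ to 3′ on the strand of the gene. FMNL2 lies at chr2:152334924-152335173 on the plus strand and FMNL3 at chr12:49707406-49707655 on the minus strand. Capitals mark matches to the GC box GGGCGG on either strand.
FMNL2: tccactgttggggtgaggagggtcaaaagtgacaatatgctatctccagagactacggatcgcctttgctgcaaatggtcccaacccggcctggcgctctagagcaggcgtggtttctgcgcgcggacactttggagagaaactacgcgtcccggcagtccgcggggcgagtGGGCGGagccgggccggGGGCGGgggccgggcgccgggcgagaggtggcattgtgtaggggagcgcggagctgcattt
FMNL3: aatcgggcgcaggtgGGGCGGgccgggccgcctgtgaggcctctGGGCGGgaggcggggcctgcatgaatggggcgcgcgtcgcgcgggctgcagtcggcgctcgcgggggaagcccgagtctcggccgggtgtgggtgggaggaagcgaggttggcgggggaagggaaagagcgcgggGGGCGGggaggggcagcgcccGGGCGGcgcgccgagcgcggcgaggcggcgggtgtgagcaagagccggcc
The FMNL2 window held 2 GC boxes and the FMNL3 window 4. A GC box was present in 42.6% of 35116 RefSeq promoter windows of this length. G and C made up 65.2% of the FMNL2 window and 79.2% of the FMNL3 window, against a median of 58.0% over all windows. Neither window held the TATA box TATAAA, found in 10.7% of all windows, or the CArG box bound by SRF, found in 1.16%. All 10 members had at least 1 window in the table, 16 in all, of which 11 held a GC box, 0 the TATA box and 0 the CArG box. The arrays did not measure binding to these sequences, and a match is a description of letters.

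Values are log2 expression after RMA, which corrects background, scales the arrays to one distribution and summarises each probe set. Array medians lay between 6.45 and 6.49, and correlations across genes, which are not independent replicates, were 0.995 to 0.998 within and 0.991 to 0.996 between groups. Genes with a mean over all arrays above log2 5.50, the 25th percentile, were tested, which left 13812. The filter level is not a detection limit. Of the formins 9 passed it and DAAM2 did not. All 10 colon epithelium markers passed the filter, with a list mean of 10.24 to 10.36 in control and 10.08 to 10.11 in laminin α1 arrays. Of those 10 markers 2 fell, CDH17 and LGALS4, beside 2.59% of all tested genes that fell past the limma threshold used here, an adjusted p under 0.05. The laminin α1 mean of CDH17 lay below the filter level, and it passed the filter through its control arrays. Markers of other cell types passed the filter in part, 4 of 6 for fibroblasts, 1 of 4 for endothelium and 1 of 3 for blood cells. The highest gene means of these lists were 7.37, 5.94 and 7.75. Markers of fibroblasts (6 genes), endothelium (4) and blood cells (3) had list means of 5.56 to 5.65, 5.25 to 5.34 and 5.54 to 5.56 in control arrays and 5.57 to 5.64, 5.28 to 5.33 and 5.51 to 5.54 in laminin α1 arrays. LAMA1 itself, which encodes the chain, had a difference of 0.09 (95% interval -0.05 to 0.24), and no source used here tells if its probes reach the construct, so the labels could not be checked with it.

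The 3 control passages had log2 levels of FMNL2 of 7.69, 7.68 and 7.78, against 5.06, 5.31 and 5.42 with laminin α1. Every laminin α1 array lay below every control array, with a gap of 2.26 between the nearest arrays of the groups. The means were 7.72 ± 0.06 and 5.26 ± 0.18 (SD, n = 3), a log2 difference of -2.46 (SE 0.09, 95% interval -2.66 to -2.25), or 5.48-fold lower. All 3 laminin α1 values lay below the filter level, where the signal is low and a fold is uncertain. FMNL2 passed the filter through its control arrays. With the filter level as the floor, FMNL2 was at least 4.66-fold lower. In whole cultures, fewer cells that express FMNL2 and less FMNL2 RNA per cell cannot be told apart.

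FMNL3, the closest relative of FMNL2, which also works in protrusions of the cell edge, had control levels of 6.30, 6.28 and 6.27 and laminin α1 levels of 6.20, 6.24 and 6.13. The groups did not overlap, as for 21.6% of all tested genes. The log2 difference was -0.09 (SE 0.06, 95% interval -0.23 to 0.04) and did not pass the limma test over all genes (adjusted p = 0.515). FMNL1, known best from blood cells, had control levels of 6.49, 6.42 and 6.55 and laminin α1 levels of 6.24, 6.52 and 6.53. Its lowest value was that of laminin α1 replicate 1, and the groups overlapped. The difference was -0.06 (95% interval -0.25 to 0.14), and 0.04 without laminin α1 replicate 1.

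**Figure D1:**
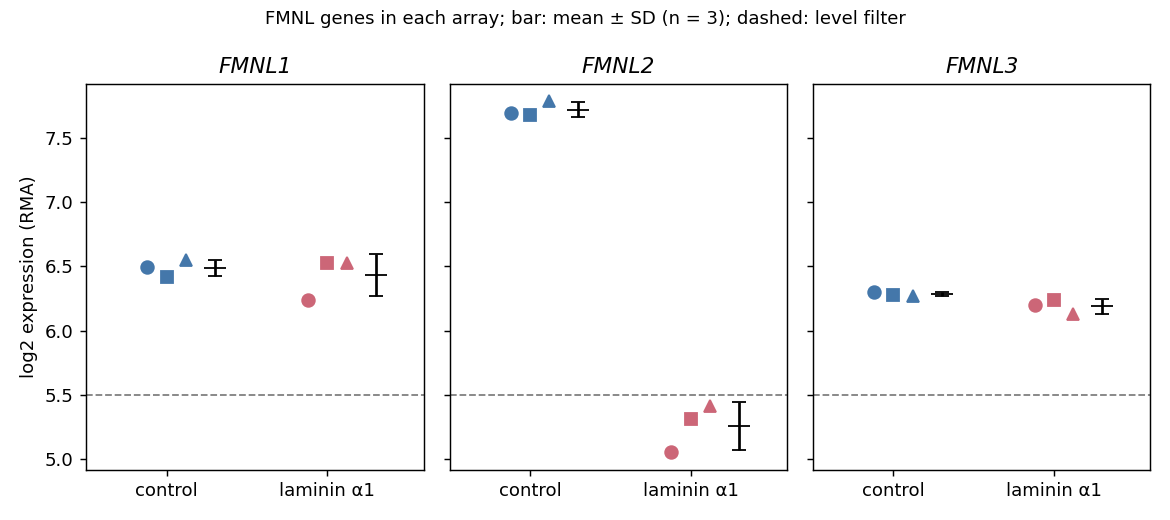
Log2 expression (vertical axis) of FMNL1, FMNL2 and FMNL3 in 3 control arrays (blue) and 3 laminin α1 arrays (red), with the mean ± SD of each group in black, marker shape for the replicate number and the filter level of 5.50 dashed. FMNL2 dropped from 7.68 to 7.78 in control arrays to 5.06 to 5.42 in laminin α1 arrays, below the filter level. Levels of different genes come from different probes and cannot be set against each other.

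None of the 8 other tested formins passed the threshold in the limma fit, while 5.29% of all tested genes did. None of the 8 had an unadjusted p under 0.05, while 16.7% of all tested genes did. Their log2 differences ran from -0.20 for DIAPH2 to 0.27 for DIAPH3, 3 below and 5 above 0. The median size of these differences was 0.10, and that of all tested genes 0.08. For 7 of the 8 the 95% interval lay wholly within 0.5 of 0 on the log2 scale, and the interval of DIAPH3 reached 0.56. With limma's array weights, whose estimation stopped before it converged, 3 of the 8 passed, DIAPH2 lower and DIAPH3 and FHOD1 higher, and so did 34% of all tested genes. With the replicate number as a block in the fit, 1 of the 8 passed, DIAPH3 higher (limma adjusted p = 0.0304). So did 11.6% of all tested genes, and whether the numbers pair the arrays was not settled.

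**Figure D2:**
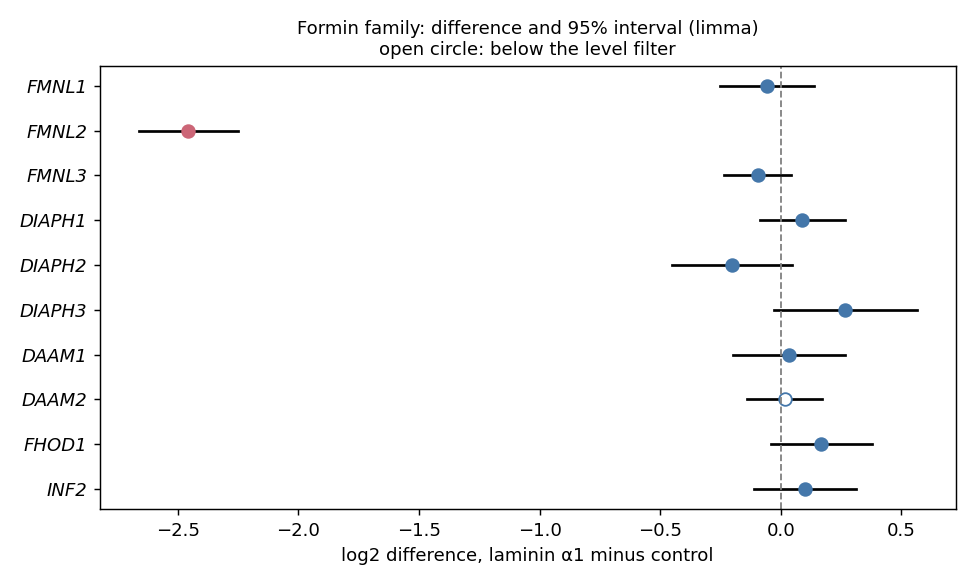
Log2 difference, laminin α1 minus control (horizontal axis), of the 10 formins, with the 95% interval of the limma fit as a line and an open circle for DAAM2, which lay below the level filter and was fitted without it. FMNL2 lies at -2.46, and the other members lie between -0.20 and 0.27 with intervals that include 0.

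Of the diaphanous formins, DIAPH3, which takes part in cytokinesis and in filopodia, had control levels of 7.62, 7.70 and 7.95 and laminin α1 levels of 7.87, 7.86 and 8.34. The groups overlapped. Replicate 3 was the highest array of each group, and that of laminin α1 the highest of all 6. Between arrays of the same number laminin α1 was higher by 0.25, 0.16 and 0.39. The difference was 0.27 (SE 0.13, 95% interval -0.03 to 0.56, limma adjusted p = 0.353), and 0.11 without laminin α1 replicate 3. DIAPH2, which has been linked to the attachment of chromosomes in mitosis, had control levels of 8.58, 8.67 and 8.73 and laminin α1 levels of 8.23, 8.44 and 8.71. Here 2 laminin α1 arrays lay below all control arrays and the other, replicate 3, lay among them. The difference was -0.20 (95% interval -0.45 to 0.05, limma adjusted p = 0.419). Without laminin α1 replicate 3 it was -0.33 and passed (limma adjusted p = 0.0436), and without laminin α1 replicate 1 it was -0.09 (limma adjusted p = 0.809). Without laminin α1 replicate 3, 1214 genes passed, against 730 with all arrays. The probe set of DIAPH2-AS1, the RNA named as antisense to DIAPH2, had a control mean of 5.16 ± 0.13 and a laminin α1 mean of 5.28 ± 0.07 (SD, n = 3). DIAPH1, which drives stress fibres, had control levels of 9.41, 9.32 and 9.31 and laminin α1 levels of 9.56, 9.44 and 9.30. The highest and the lowest of the 6 arrays were both laminin α1 arrays, and the difference was 0.09 (95% interval -0.09 to 0.27).

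DAAM1 binds Dishevelled and acts in the branch of Wnt signalling that sets planar cell polarity. Its control levels were 6.67, 6.72 and 6.90 and its laminin α1 levels 6.65, 6.71 and 7.02. Replicate 3 was the highest array of each group, and the group means were 6.76 ± 0.12 and 6.80 ± 0.20 (SD, n = 3). The difference of 0.03 (95% interval -0.20 to 0.27) turned to -0.01 without control replicate 1 and to -0.08 without laminin α1 replicate 3. DAAM2, its relative, was below the filter, with control values of 5.05 to 5.23 that overlapped the laminin α1 values of 5.14 to 5.21. In the fit without the filter its difference was 0.02 (95% interval -0.14 to 0.17).

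FHOD1 is a formin of stress fibres that is switched on by the kinase ROCK. It had control levels of 7.30, 7.21 and 7.05 and laminin α1 levels of 7.51, 7.35 and 7.20. In the laminin α1 group 2 arrays lay above all control arrays, and replicate 3 did not. Replicate 3 was the lowest array of each group. Between arrays of the same number laminin α1 was higher by 0.21, 0.14 and 0.15. The difference was 0.17 (SE 0.09, 95% interval -0.04 to 0.38, limma adjusted p = 0.426). INF2, which both builds and takes apart filaments, had control levels of 9.51, 9.43 and 9.17 and laminin α1 levels of 9.57, 9.43 and 9.40. Control replicate 3 was the lowest array, and without it the difference of 0.10 (95% interval -0.11 to 0.31) was -0.0011. The second probe set of INF2, with a control mean of 8.49 ± 0.08 and a laminin α1 mean of 8.61 ± 0.07 (SD, n = 3), had a difference of 0.12 with groups that did not overlap. That difference did not pass when limma was fitted to all 33297 probe sets (adjusted p = 0.562).

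**Figure D3:**
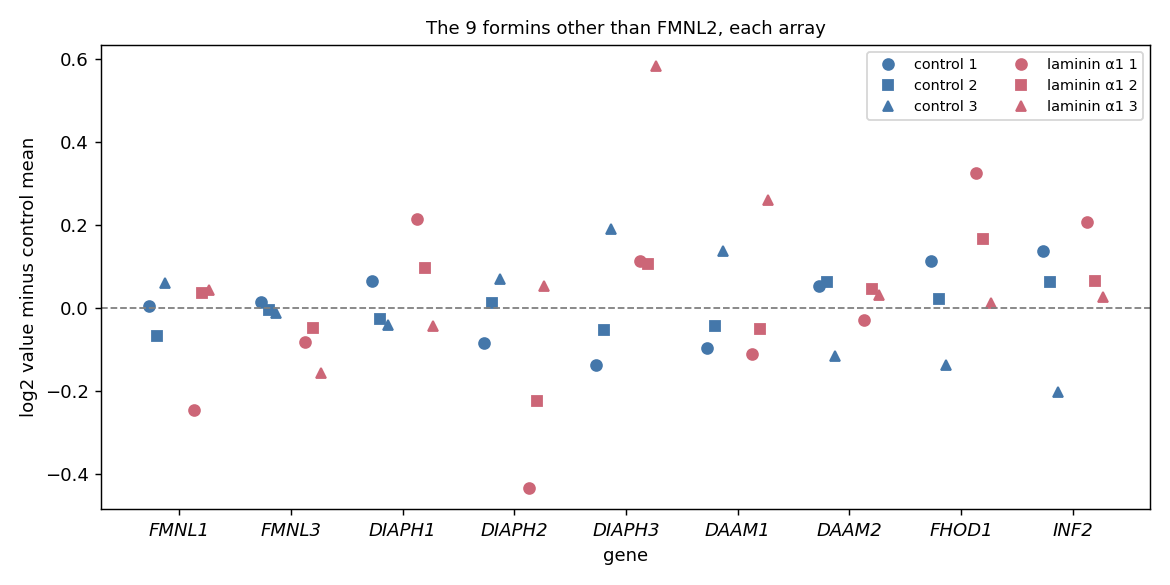
Log2 value minus the control mean of the gene (vertical axis) for the 9 formins other than FMNL2 in 3 control arrays (blue) and 3 laminin α1 arrays (red), with marker shape for the replicate number. The groups of FMNL3 do not overlap and those of the other 8 do. DIAPH3 in laminin α1 replicate 3 is the highest point and DIAPH2 in laminin α1 replicate 1 the lowest.

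Values of other genes with an FH2 domain were read as well. FMN1, which acts at cell junctions, had a difference of 0.06 (95% interval -0.08 to 0.19, limma adjusted p = 0.716). The second probe set of FMN1 had a difference of -0.04, with means of 5.41 in control and 5.37 in laminin α1 arrays. FMN2 and FHOD3 were below the filter, with control means of 4.46 ± 0.06 and 5.30 ± 0.07 and laminin α1 means of 4.45 ± 0.10 and 5.39 ± 0.03 (SD, n = 3). FHDC1, added after its values were seen, had a difference of -0.04 (95% interval -0.25 to 0.17).

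The genes beside FMNL2 on chromosome 2 were read in RefSeq order, from those with a probe set of a single symbol. STAM2, RIF1, NEB and TNFAIP6 lie before it and GALNT13, RPRM, NR4A2 and GPD2 after it. Their log2 differences lay between -0.23 for GPD2 and 0.12 for RPRM, with a median of -0.08, and 6 of the 8 were below 0. Of the 8, 5 were tested and 0 passed in limma, against 5.29% of all tested genes. GPD2 passed without laminin α1 replicate 3 (-0.38, limma adjusted p = 0.0358), where 1214 genes passed, against 730 with all arrays. With the replicate number as a block GPD2 passed too (limma adjusted p = 0.0457), as did 11.6% of all tested genes. With array weights, under which 34% of all tested genes passed, 4 of the 5 did, STAM2, NR4A2 and GPD2 lower and RPRM higher. STAM2, an adaptor in endosomal sorting and the nearest measured gene before FMNL2, had a difference of -0.14 (95% interval -0.40 to 0.12). GALNT13, a glycosyltransferase and the nearest after it, was below the filter in both groups, at 4.02 ± 0.12 and 3.89 ± 0.10 (SD, n = 3).

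**Figure D4:**
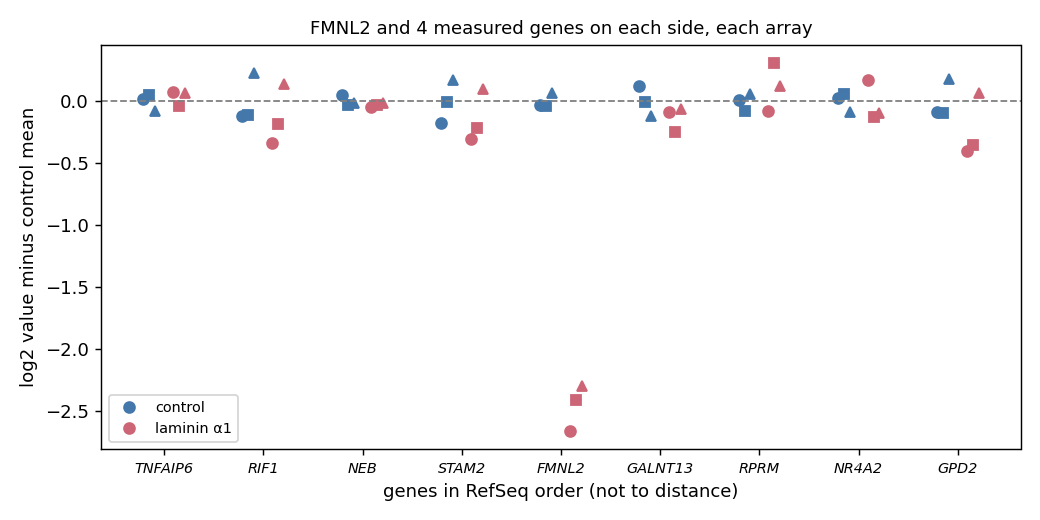
Log2 value minus the control mean of the gene (vertical axis) for FMNL2 and the 4 measured genes on each side in RefSeq order, in 3 control arrays (blue) and 3 laminin α1 arrays (red), with marker shape for the replicate number. The 3 laminin α1 points of FMNL2 lie at least 2.26 log2 units below its control points, and the groups of each neighbour overlap.

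The genes whose values over the 6 arrays were most like those of FMNL2 were CDH17 (Pearson r = 0.9994), MUC2 (r = 0.9982), ENPP2 (r = 0.9976), HEPACAM2 (r = 0.9973) and SPINK4 (r = 0.9970). CDH17 is the cadherin of intestinal epithelium, MUC2 the main secreted mucin of the colon, ENPP2 the enzyme autotaxin, HEPACAM2 an adhesion protein and SPINK4 a goblet cell peptide. PADI1 (r = -0.9997), POLR1D (r = -0.9995) and B3GALT4 (r = -0.9993) were the most opposed. The laminin α1 means of CDH17, ENPP2 and HEPACAM2 lay below the filter level, which they passed through their control arrays. B3GALT4 did not pass the threshold (limma adjusted p = 0.0755). These correlations are a description over 6 arrays in 2 groups, and any gene with tight and separate groups gives a value near 1 or -1. There were 35 genes with r above 0.99 and 39 below -0.99. Among the other tested formins r with FMNL2 ran from -0.65 for FHOD1 to 0.79 for FMNL3.

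Genes that work with formins or beside them were collected in 8 lists of 137 genes, of which 125 had a probe set of their own and 114 were tested. Of these 3 rose and 8 fell, or 9.65%, and 103 did not pass, beside 372 risen (2.69%) and 358 fallen (2.59%) of all tested genes. The median log2 difference was 0.0011 over the lists and -0.01 over all tested genes. An unadjusted p under 0.05 was found for 32 of the 114, and for 16.7% of all tested genes. The lists were chosen with earlier results of these data known, so such shares are no test. All 11 that passed the threshold had groups that did not overlap, beside 21.6% of all tested genes. The threshold itself favours genes with separate groups, so this adds no support. CAP2, counted among the 8 that fell, passed the filter through its control arrays only. Without control replicate 2 or without laminin α1 replicate 2 the count was 7. Over all genes 407 and 429 passed in these fits, against 730 with all arrays.

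Regulators and partners of formins numbered 21 tested genes, of which 0 rose and 1 fell, with a median of -0.01. The share past the threshold was 4.76%, beside 5.29% of all tested genes. An unadjusted p under 0.05 was found for 3, beside 16.7% of all tested genes. NMT2, one of the enzymes that attach myristate to proteins, fell 1.26-fold (limma adjusted p = 0.0295), from 8.05, 8.06 and 7.94 to 7.74, 7.56 and 7.75. The call was lost without control replicate 1, control replicate 2 or laminin α1 replicate 2, up to adjusted p = 0.149. ROCK1, the kinase that acts on FHOD1, had a difference of -0.01. SRGAP2, a partner of FMNL1 with near-identical gene copies that may share its probes, had 0.13, and neither passed.

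Formins use actin and profilin as their supply. Of that list 0 of 7 tested genes passed in limma, beside 5.29% of all tested genes. None of the 7 had an unadjusted p under 0.05, which 16.7% of all tested genes had. A list of 7 genes is too short to set 0 apart from such shares. PFN1, the main profilin, had a difference of 0.0002 (95% interval -0.14 to 0.14) and ACTB, whose sequence is close to that of ACTG1, 0.0027. ACTA2 had the smallest p of the list, with a difference of 0.06. The Arp2/3 complex and its activators make branched filaments, and 0 of 23 passed the threshold in limma, beside 5.29% of all tested genes. With 23 genes, 0 is close to that share. An unadjusted p under 0.05 was found for 2, again beside 16.7% of all tested genes. JMY, an activator of the complex, had the smallest p, with a difference of -0.29 (95% interval -0.55 to -0.04, limma adjusted p = 0.211), and passed without laminin α1 replicate 3 (-0.41, limma adjusted p = 0.0241). Without laminin α1 replicate 1 the difference of JMY was -0.16 (limma adjusted p = 0.440). With laminin α1 replicate 3 removed, 1214 genes passed, against 730 with all arrays. In the list of other nucleators and elongation factors 1 of 6 fell and 0 rose, with a median of -0.23. Of all tested genes 2.59% fell and 2.69% rose. In this list 4 had an unadjusted p under 0.05, beside 16.7% of all tested genes. SPIRE1, a nucleator that works together with the formins FMN1 and FMN2, fell from 6.52, 6.46 and 6.26 to 5.66, 5.91 and 5.67, or 1.59-fold (limma adjusted p = 0.00210).

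Filament capping, severing and turnover genes had 1 of 20 higher and 2 lower, with a median of -0.02. That is 15% of the list, beside 5.29% of all tested genes. In the list 8 had an unadjusted p under 0.05, beside 16.7% of all tested genes. CAP2, which helps to recycle actin monomers, fell from 6.83, 6.82 and 6.66 to 5.20, 5.15 and 5.29. The log2 difference was -1.55 (SE 0.07), or 2.93-fold. The laminin α1 arrays of CAP2 lay below the filter, which it passed through its control arrays, and against that floor the fall was at least 2.41-fold. In the limma fit without the filter CAP2 also passed (adjusted p = 2.05e-06). Of the 3 tested tropomodulins, which cap the slow-growing end of a filament, TMOD2 rose 1.45-fold and TMOD1 fell 1.30-fold. TMOD3, named after its values were seen, had a difference of -0.03. The TMOD1 call was lost without any of the 3 control arrays or laminin α1 replicate 2, up to adjusted p = 0.166. It was also lost with arrays centred on their medians and with all probe sets tested separately.

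Filopodium and microvillus genes had 1 of 17 higher and 1 lower, with a median of -0.01. That is 11.8% of the list, beside 5.29% of all tested genes. In the list 7 had an unadjusted p under 0.05, beside 16.7% of all tested genes. MSN, or moesin, which ties actin to the cell membrane, rose from 10.48, 10.41 and 10.50 to 11.07, 10.99 and 10.90, or 1.44-fold (limma adjusted p = 0.00128). PLS3, a plastin that bundles filaments, fell 1.47-fold, and that call was lost without control replicate 2, control replicate 3, laminin α1 replicate 1 or laminin α1 replicate 2, up to adjusted p = 0.156. The transcription factor SRF, whose partners MRTFA and MRTFB are released when formins use up free actin, had a difference of 0.13 (95% interval -0.05 to 0.32) and did not pass. Of 19 tested genes of the SRF list 1 rose and 3 fell, with a median of -0.0005. That is 21.1% of the list, beside 5.29% of all tested genes. Here 8 had an unadjusted p under 0.05, beside 16.7% of all tested genes. CNN3, a calponin, rose from 6.30, 6.29 and 6.23 to 7.33, 7.19 and 6.95. TPM1, a tropomyosin, fell from 9.30, 9.28 and 9.18 to 8.68, 8.65 and 8.64. CCN2, a matricellular growth factor that is also a target of YAP, fell 1.58-fold. ZYX, or zyxin, of focal adhesions fell 1.26-fold, a call lost without any 1 of the arrays other than laminin α1 replicate 1, up to adjusted p = 0.147.

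**Figure D5:**
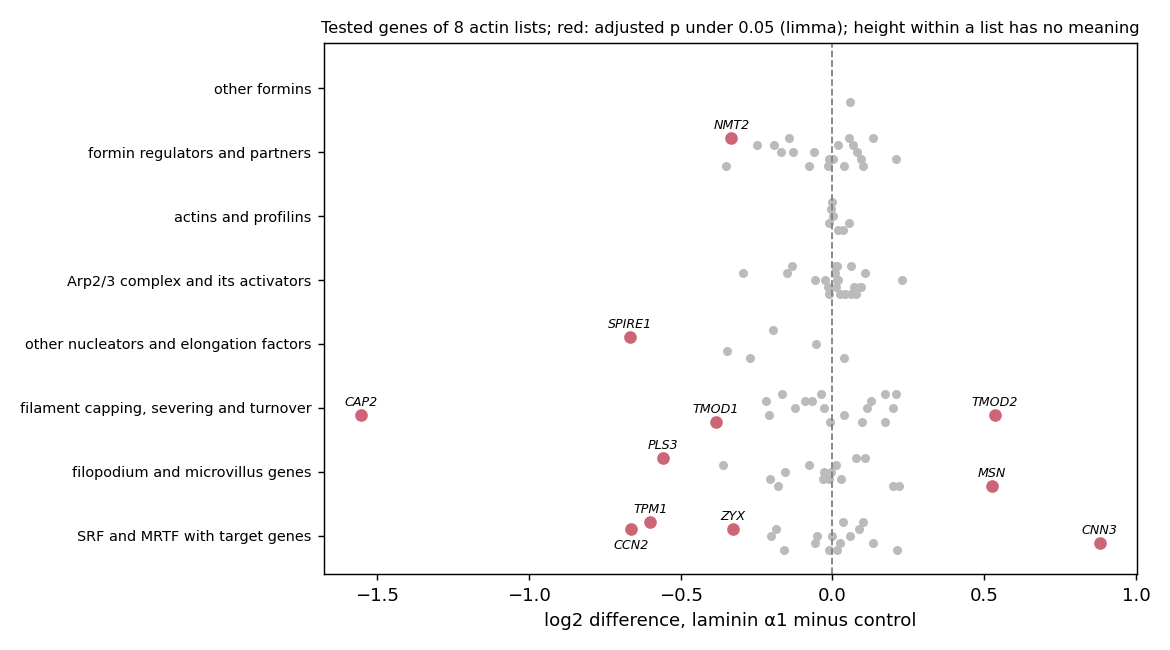
Log2 difference, laminin α1 minus control (horizontal axis), of the 114 tested genes in 8 lists (rows), with the 11 genes past an adjusted p of 0.05 in the limma fit in red and named. CAP2 at -1.55 and CNN3 at 0.88 are the outermost points, and no gene of the actin and profilin or the Arp2/3 lists is named. Over all tested genes 5.29% passed.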

How the data were processed

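The 6 arrays of HT29 cells, 3 per group, carry log2 values per probe set that the authors deposited. Per the submitters' processing notes they come from RMA in Affymetrix Expression Console 1.1, and they were used unchanged. Gene names are those of the platform annotation, which gave 1 symbol for 19460 of 33297 and several for 1754. Per gene the probe set with the highest mean was kept, and genes above the 25th percentile of means were tested. Differences are laminin α1 minus control from limma 3.58.1 (lmFit, then eBayes, no covariates; R 4.3.3), with Benjamini-Hochberg adjustment over 13812 genes. The number of arrays limits the precision, with a median standard error of 0.0754. The fit was tested on simulated data. The members and lists were chosen with earlier results of these data known. Named were all members, LAMA1, 5 set genes (PFN1, ACTB, SRF, ROCK1 and SRGAP2), the other formins, up to 4 called genes per list (or that with the smallest p), 4 neighbours on each side of FMNL2, and the genes with the 5 highest and 3 lowest correlations with it. Alternatives were other filters, probe set rules, scalings, variance models, array weights, a replicate block, a threshold of 0.01 and each array left out. A further gene list of the design is not reported here.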

Additional observations from a re-analysis of the deposited data

How the results depend on the processing

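The difference of FMNL2 kept its sign under all alternatives in which it was tested. The gap of 2.26 between the nearest arrays of the groups left little room for another sign, so this is no test. The difference ran from -2.53 to -2.35 with 1 array left out and was -2.22 with the filter level as the floor. With the filter at the 50th percentile FMNL2 was not tested, 0 formins passed and 6 listed actin genes did, among 521 genes in all. Counts of formins here include FMNL2, whose difference chose the family, and its part in them is no test. Array weights gave 4691 genes, 4 formins (3 besides FMNL2) and 49 listed actin genes. Whether the replicate numbers pair the arrays could not be settled with 3 arrays per group. For numbers 1, 2 and 3 the correlations of deviations from the group means were 0.39, 0.02 and 0.53 between arrays of the same number. The highest with another number were 0.16, 0.16 and -0.16, so number 2 alone correlated higher with another number. With the replicate number as a block 1596 genes (11.6%), 2 formins (1 besides FMNL2) and 24 listed actin genes passed, and DIAPH3 had a limma adjusted p of 0.0304 and GPD2, a neighbour of FMNL2, 0.0457. At an adjusted p under 0.01, 393 genes and 7 listed actin genes passed. With all probe sets tested separately, 7 listed actin genes passed. The calls of NMT2 (limma adjusted p = 0.0912), TMOD1 (0.121), PLS3 (0.152) and ZYX (0.112) were lost there. With 1 array left out, 407 (control replicate 2 removed) to 1214 genes (laminin α1 replicate 3 removed) passed, with 1 to 2 formins (0 to 1 besides FMNL2, the 1 being DIAPH2) and 7 to 15 listed actin genes. The sign turned for FMNL1 (0.071 with array weights, and -0.10 to 0.039 with 1 array left out), DAAM1 (-0.079 to 0.11 with 1 array left out) and INF2 (-0.0011 to 0.17 with 1 array left out), none of which passed either way. The causes were not tested. No background measure was used, so values near the filter level set no detection limit.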
